A study of Mus musculus with 20 samples.

Results

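The 8 acetylcholine receptor genes described here were Chrm1, Chrm2, Chrm3, Chrm4 and Chrm5, which encode the muscarinic receptors, and Chrna4, Chrna7 and Chrnb2, which encode nicotinic subunits. They were found by their symbols among the 48709 genes of the count table, and each symbol matched once. RNA of the right hippocampus was sequenced from 20 young adult C57BL/6 mice (C57BL/6J in the methods), 5 for each combination of sex and exposure (control or nPM). nPM is the nano-sized fraction of urban particulate matter. Pregnant dams of the nPM groups inhaled it re-aerosolized, by whole-body exposure in their home cages, with sessions of 5 h, 3 days a week, from gestational day 2 until birth. The concentration was 300 per m3, in mg in the labels and in μg in the methods. Dams of the control groups inhaled filtered air. The offspring themselves were not exposed after birth, and which litter gave which sample is not stated in the sources used here. The methods give 5 litters for each exposure, so that littermates are among the 10 samples of each. The fits treat samples as independent, and p-values measure the spread between samples and not between litters. The methods describe injections of EdU, a label of dividing cells, in male mice. They also say that all animals received it, and whether this includes females is not clear. Females were 17.71 to 18.29 weeks old and males 18.57 to 19.14 weeks, so that sex and age cannot be told apart. If males alone received EdU, it cannot be told apart from sex either.

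Acetylcholine reaches the hippocampus mainly through axons from the medial septum and the diagonal band. Muscarinic receptors are coupled to G proteins. Chrm1, Chrm3 and Chrm5 encode receptors that activate phospholipase C, while the receptors of Chrm2 and Chrm4 inhibit adenylyl cyclase and open inwardly rectifying potassium channels. Nicotinic receptors are cation channels opened by acetylcholine. The subunits of Chrna4 and Chrnb2 assemble into the main high-affinity receptor of the brain, and the subunit of Chrna7 forms a calcium-permeable receptor on its own.

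Between 19092067 and 38663408 reads per sample were counted on genes, with a median of 29468930. The tissue label was checked against marker genes. Markers of hippocampal excitatory neurons were present in every sample, at mean sums of 1158 to 1554 CPM in the 4 groups, where CPM are counts scaled to an effective library size (TMM) of 1000000. Zbtb20, at a mean of 833 CPM over all samples, made most of this sum, here and in the correlations below. Markers of choroid plexus, a tissue beside the hippocampus, differed widely between samples, from 32.6 to 8181 CPM in sum. The summed striatal markers reached 299 CPM in nPM female 1 and were 42.7 to 112 CPM in the other samples. In bulk tissue, fewer cells of a type and less RNA per cell cannot be told apart.

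The receptor genes lie on separate chromosomes except for Chrm4, Chrm5 and Chrna4, which share chromosome 2. In mm10 coordinates of the deposited gene table, Chrm1 (ENSMUSG00000032773.9) spans chr19:8663789-8683587 on the plus strand and Chrm2 (ENSMUSG00000045613.9) spans chr6:36388084-36528414 on the plus strand. Chrm3 (ENSMUSG00000046159.15) has the widest span of the receptors, chr13:9875486-10360844 on the minus strand. Chrm4 (ENSMUSG00000040495.4) is at chr2:91927249-91928688, plus strand, and Chrm5 (ENSMUSG00000074939.3) at chr2:112479171-112480769, minus strand. These last models are short, 1440 and 1599 bases, and in a later annotation of the same build 100% of their bases are coding. RefSeq gives Chrm4 and Chrm5 spans of 7647 and 57629 bases, so that reads from their untranslated exons were not counted. Among the nicotinic genes, Chrna4 (ENSMUSG00000027577.14) spans chr2:181018380-181043546, Chrna7 (ENSMUSG00000030525.8) spans chr7:63098692-63212569 and Chrnb2 (ENSMUSG00000027950.7) spans chr3:89746195-89764632, all on the minus strand. Of the 8380 exonic bases of Chrnb2, 1365 (16.3%) are shared with exons of Adar, an RNA-editing gene on the opposite strand. The strand setting of the counting is not stated, so that reads in this stretch cannot be assigned to either gene with certainty. Chrnb2 and Adar did not vary closely together, with r = 0.16 for deviations of log2 CPM from the group means over 20 samples.

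Promoter sequences of 300 bases, from 250 bases before to 50 bases after a RefSeq start, were found for 7 of the 8 genes (RefSeq, GRCm38.p6). The promoters of Chrna4 and Chrnb2 are shown because the subunits assemble together but differed most among the nicotinic genes in their spread between samples, and that of Chrm2 because its highest sample lay farthest above its lowest, 4.14-fold in RPKM. Each is printed 5′ to 3′ on the strand of its gene, and capitals mark the GC box GGGCGG or its reverse complement CCGCCC, which is the motif that factors of the Sp family are known to bind. Chrna4 is read from chr2:181039128-181039427 (minus strand), a start inside the deposited gene model, Chrnb2 from chr3:89764583-89764882 (minus strand) and Chrm2 from chr6:36387834-36388133 (plus strand).
Chrna4: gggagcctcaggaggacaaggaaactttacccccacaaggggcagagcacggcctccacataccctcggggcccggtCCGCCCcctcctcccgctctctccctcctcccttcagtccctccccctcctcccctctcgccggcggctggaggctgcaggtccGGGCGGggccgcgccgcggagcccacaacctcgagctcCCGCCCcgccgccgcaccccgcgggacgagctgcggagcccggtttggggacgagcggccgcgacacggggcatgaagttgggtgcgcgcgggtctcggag
Chrnb2: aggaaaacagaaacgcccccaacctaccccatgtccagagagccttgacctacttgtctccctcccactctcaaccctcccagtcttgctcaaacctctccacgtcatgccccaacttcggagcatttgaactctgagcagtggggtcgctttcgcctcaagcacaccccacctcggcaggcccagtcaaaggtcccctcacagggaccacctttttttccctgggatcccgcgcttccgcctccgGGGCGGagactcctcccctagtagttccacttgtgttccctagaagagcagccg
Chrm2: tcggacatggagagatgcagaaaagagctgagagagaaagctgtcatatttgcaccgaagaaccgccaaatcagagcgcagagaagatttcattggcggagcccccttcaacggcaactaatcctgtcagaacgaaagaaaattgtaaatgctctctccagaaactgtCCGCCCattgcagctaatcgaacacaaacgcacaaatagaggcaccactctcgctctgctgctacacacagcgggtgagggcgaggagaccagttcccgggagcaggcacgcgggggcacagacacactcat

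The Chrna4 promoter holds 3 of these motifs and has a GC content of 74.3%. The Chrnb2 and Chrm2 promoters hold 1 each, with GC contents of 59% and 52.7%. The motif was found in 5 of the 7 receptor promoters and in 35.7% of all 32851 mouse promoters of this length, on both strands. The TATA box TATAAA was in 0 of the 7 receptor promoters and in 13.6% of all promoters. The median GC content of all promoters was 52.7%. The Chrm5 sequence, chr2:112480768-112481067 on the minus strand, lies inside the RefSeq span of its gene, which reaches to 112536361. That of Chrna4 also lies inside its RefSeq span, which reaches to 181043579. The counts over the 7 receptor promoters include both.

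Chrm1 had the highest level per length of the receptor genes, and Chrm5 the lowest. Levels are given as RPKM, counts per kilobase of gene length and per 1000000 counted reads without TMM, as mean ± SD over the 20 samples. Chrm1 was at 21.3 ± 3.49 RPKM, above 87.1% of the 15007 protein-coding genes tested. Chrm3 followed at 14.7 ± 2.38 RPKM, above 79.9% of these genes. The remaining receptors lay between 1.501 and 6.12 RPKM. Chrnb2 was at 6.12 ± 0.497, Chrm4 at 4.96 ± 1.11 and Chrna7 at 4.71 ± 0.556 RPKM. Chrna4 was at 3.95 ± 0.994, Chrm2 at 3.43 ± 1.33 and Chrm5 at 1.501 ± 0.564 RPKM. The receptors that activate phospholipase C thus held both the top and the bottom of the order.

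**Figure D1:**
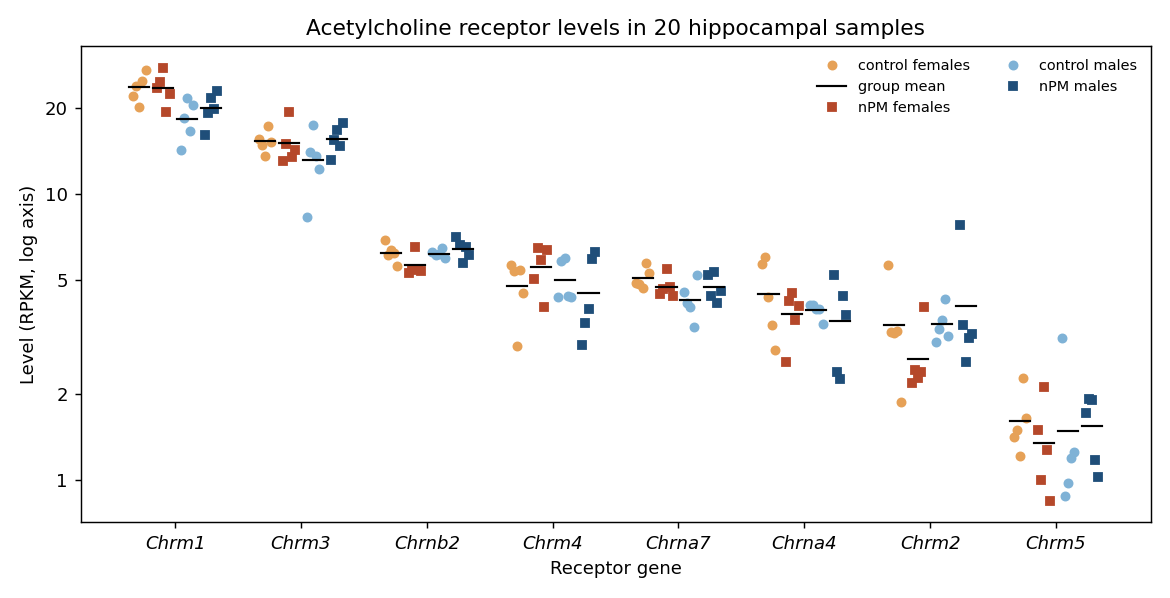
Level of each receptor gene in RPKM on a log axis, 1 point per sample and 5 samples in each of the 4 groups, with a black bar at the group mean. Chrm1 is on top at a mean of 21.3 RPKM and Chrm5 at the bottom at 1.501 RPKM, and within each sex the points of control and nPM samples overlap for every receptor.

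Each gene was compared with its neighbour in this order by a two-sided exact sign-flip permutation test over the 20 samples, on log2 RPKM, with p-values adjusted over the 7 pairs. Chrm1 exceeded Chrm3 in 20 of 20 samples, and Chrm3 exceeded Chrnb2 in 20 of 20 (adjusted p = 6.68e-06 in both exact tests, the raw p being the smallest the test can give). Chrnb2 exceeded Chrm4 in 17 of 20 samples (adjusted p = 0.00107, exact test). Chrm4 and Chrna7 did not differ beyond their spread. Their mean log2 difference was 0.05 ± 0.42 (SD, n = 20), with Chrm4 higher in 11 samples (adjusted p = 0.615, exact permutation test). Chrna7 exceeded Chrna4 in 15 samples (adjusted p = 0.00875), Chrna4 exceeded Chrm2 in 16 (adjusted p = 0.0241) and Chrm2 exceeded Chrm5 in 19 (adjusted p = 8.9e-06), all by the same exact test. The order of the group means was the same in the 4 groups apart from swaps of neighbours. Chrm4 stood above Chrna7 in control males and nPM females and below it in the other groups, and Chrm2 stood above Chrna4 in nPM males alone. The levels of Chrm4 and Chrm5 rest on models without untranslated exons and those of the other genes do not, which limits comparisons with them. Chrm3 and Chrnb2 have limits too. The deposited length of Chrm3 is 4507 bases, against 6253 in a later annotation. Chrnb2 spans 18438 bases, against 11185 in RefSeq, and shares 16.3% of its exonic bases with Adar.

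The receptors differed in how closely the samples of a group agreed. Chrnb2 had the smallest spread, with an SD of 0.10 on the log2 scale within groups, smaller than in all but 16.9% of the 4508 genes with similar counts. It was 42.6 CPM in the lowest sample and 58.6 CPM in the highest. Chrna7 had a within-group SD of 0.17 and Chrm1 of 0.20. Chrna4, the partner subunit of Chrnb2, was far more variable, with an SD of 0.39, larger than in 93.4% of genes with similar counts. Chrm2 had an SD of 0.45, larger than in 95.7%, and ranged from 11.3 to 46.7 CPM. Chrm5 had the largest SD of the receptors, 0.53, at the fewest counts, 34 to 141 per sample. For genes with counts as low as those of Chrm5 this spread stood at the 78.0th percentile. Chrm3 and Chrm4 had SDs of 0.25 and 0.35.

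The first question of the design was whether gestational nPM changed the expression of the receptors in the adult hippocampus. In limma-voom with both sexes and sex as a covariate, 0 of the 8 receptors had a p under 0.005, the threshold of the study, and 0 a p under 0.05, at background shares of 0.141% and 2.10% of the 19797 genes tested. The same counts, 0 of 8 at both thresholds, were found in males (background 0.207% and 4.28%), in females (0.0909% and 1.99%) and for the difference of the nPM effect between the sexes (0.217% and 3.79%). The edgeR quasi-likelihood test and the DESeq2 Wald test also gave 0 of 8 at both thresholds in these comparisons. With so few genes called anywhere, these counts do not set the receptors apart from other genes. Over the 5 muscarinic genes the median log2 change with both sexes was 0.02, and over all genes tested it was -0.01. The smallest p of a receptor was 0.181 with both sexes (Chrna4), 0.151 in males (Chrm3), 0.172 in females (Chrm4) and 0.129 for the difference between the sexes (Chrm4). All adjusted p of the receptors in these fits were at least 0.963.

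**Figure D2:**
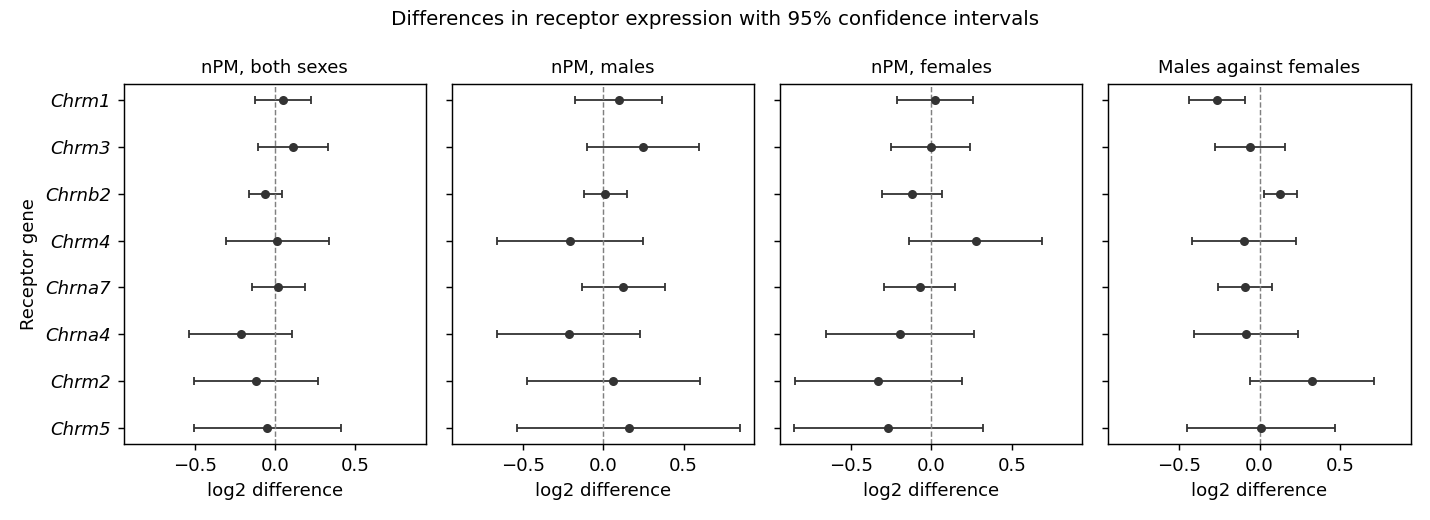
log2 differences of the 8 receptors with 95% confidence intervals from limma-voom, for nPM against control in both sexes, in males and in females, and for males against females. All intervals of the nPM comparisons include 0, and those of Chrm1 and Chrnb2 between the sexes do not.

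Chrm1, the most abundant muscarinic receptor gene of the hippocampus, was at 135, 155, 127, 159 and 174 CPM in control females and at 147, 161, 178, 131 and 136 CPM in nPM females. It was at 96.2, 121, 146, 109 and 137 CPM in control males and at 103, 124, 143, 130 and 148 CPM in nPM males. Control and nPM samples overlapped over nearly their whole range in both sexes. The log2 difference between nPM and control with both sexes was 0.05 (SE 0.084), and its 95% interval, as a fold, was 0.918 to 1.17.

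Chrm3 was at 66.3, 66.9, 59.6, 76.6 and 68.0 CPM in control females and at 56.9, 68.0, 86.8, 63.3 and 60.5 CPM in nPM females. In control males it was at 39.0, 63.7, 81.9, 61.7 and 56.8 CPM, the widest range of any group. In nPM males it was at 58.8, 69.6, 77.1, 67.1 and 79.2 CPM. Control male 1 was the lowest of the 20 samples, and the other male samples overlapped between control and nPM. The log2 difference in males was 0.25 (SE 0.160, limma-voom adjusted p = 0.963). Without control male 3, the highest control, it was 0.36 and came under an unadjusted p of 0.05 (adjusted p = 0.931). Without control male 1, the lowest control, it was 0.10.

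Chrm5 was at 2.14, 2.41, 1.90, 3.59 and 2.62 CPM in control females and at 2.31, 1.62, 3.37, 2.14 and 1.28 CPM in nPM females. In control males it was at 5.26, 1.43, 1.62, 1.93 and 2.07 CPM, and in nPM males at 2.73, 3.08, 3.11, 1.91 and 1.63 CPM. Control male 1 was thus the highest sample of Chrm5 and the lowest of Chrm1 and Chrm3. Its log2 difference with both sexes was -0.05 (SE 0.220), with a 95% interval of 0.704 to 1.33 as a fold, the widest of the receptors. Without control male 1 this difference was 0.07, and the difference in males went from 0.16 to 0.44. At these counts, changes smaller than this interval were not detectable.

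Chrm2, which encodes the main presynaptic muscarinic autoreceptor, was at 32.5, 19.98, 19.3, 19.92 and 11.3 CPM in control females. In nPM females it was at 12.8, 14.8, 13.7, 15.2 and 23.0 CPM, so that 4 samples lay below the median of the controls and nPM female 5 above it. In control males it was at 19.2, 20.6, 22.9, 26.3 and 19.997 CPM. In nPM males it was at 46.7 CPM in nPM male 1, and at 21.1, 15.97, 19.3 and 19.4 CPM in the others. The log2 difference was -0.33 (SE 0.239, limma-voom adjusted p = 0.9999) in females and 0.06 (SE 0.245, adjusted p = 0.986) in males. nPM male 1 decided the direction in males, where the difference was -0.22 without it (limma-voom adjusted p = 0.985). In females it was -0.50 without control female 5, the lowest control, and came under an unadjusted p of 0.05 (adjusted p = 0.9996). Without control female 1, the highest control, it was -0.14. With both sexes it was -0.12, and it went from -0.28 without nPM male 1 to -0.03 without control female 1.

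Chrm4, the other receptor that inhibits adenylyl cyclase, was at 7.75, 7.79, 4.15, 7.68 and 6.45 CPM in control females and at 7.01, 9.40, 8.43, 6.08 and 8.63 CPM in nPM females. In control males it was at 6.56, 8.50, 8.94, 6.40 and 6.51 CPM, and in nPM males at 4.24, 5.09, 5.81, 8.62 and 8.92 CPM. The groups overlapped in both sexes. The log2 difference was 0.28 (SE 0.190) in females and -0.21 (SE 0.208) in males. The test of the difference between these effects gave -0.47 (SE 0.296, limma-voom adjusted p = 0.987). Single samples moved these values. In females the difference was 0.093 without control female 3, the lowest control, and 0.35 without nPM female 4. In males it was -0.067 without nPM male 1, the lowest sample, and -0.34 without nPM male 5, and the difference between the effects went from -0.59 without nPM male 5 to -0.29 without control female 3.

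Chrnb2 was at 54.7, 51.6, 51.9, 51.4 and 46.7 CPM in control females and at 42.9, 46.2, 54.5, 48.1 and 42.6 CPM in nPM females. In control males it was at 54.8, 51.7, 53.6, 54.6 and 51.6 CPM, and in nPM males at 58.6, 55.5, 49.1, 55.3 and 50.9 CPM. nPM females held the 3 lowest values, and nPM female 3 lay among the controls. The log2 difference in females was -0.12 (SE 0.085), and the two-sided exact permutation test of the 5 against 5 samples gave p = 0.103. Among the 16 such tests of 8 receptors in 2 sexes, this was the smallest p, with an adjusted p of 0.691, and the smallest p the test allows is 0.00794. Without nPM female 3 the log2 difference was -0.18 (adjusted p = 0.999), and the difference of the effect between the sexes was 0.21 (adjusted p = 0.921), both under an unadjusted p of 0.05 in limma-voom.

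Chrna4 was at 27.2, 30.4, 21.3, 17.3 and 14.2 CPM in control females and at 12.6, 21.4, 22.5, 19.0 and 19.2 CPM in nPM females. The control males were close together, at 21.5, 20.8, 20.8, 20.04 and 18.2 CPM. The nPM males were spread from 11.6 to 26.0 CPM, at 26.0, 11.95, 11.6, 22.4 and 18.8 CPM. The log2 difference was -0.20 (SE 0.212) in females, -0.21 (SE 0.204) in males and -0.21 (SE 0.155) with both sexes, with a 95% interval of 0.690 to 1.08 as a fold. In females it was -0.044 without nPM female 1, the lowest sample, and -0.32 without control female 5. In males it was -0.080 without nPM male 3 and -0.38 without nPM male 1, and with both sexes -0.13 and -0.29 without these samples. Chrna7 ranged from 15.6 to 25.5 CPM over the 20 samples, with overlapping groups. Its log2 difference with both sexes was 0.02 (SE 0.080), and the interval was 0.904 to 1.14 as a fold.

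The design also holds a comparison of males with females, given exposure. In it 2 of the 8 receptors passed an adjusted p < 0.05 in limma-voom, where the background was 40.4% of all genes, 18.8% higher and 21.6% lower in males. A share of 2 of 8 below such a background is no result about the receptors as a group. Chrm1 was lower in males. It was 150 ± 18.0 CPM in 10 females (lowest 127, median 151, highest 178) and 126 ± 18.4 CPM in 10 males (lowest 96.2, median 127, highest 148), and 5 males lay below every female. The log2 difference, males minus females, was -0.26 (SE 0.084, limma-voom adjusted p = 0.0161). Chrnb2 was higher in males, at 53.6 ± 2.77 CPM (lowest 49.1, median 54.1, highest 58.6) against 49.1 ± 4.42 CPM in females (lowest 42.6, median 49.7, highest 54.7), and 4 males lay above every female. The log2 difference was 0.13 (SE 0.051, limma-voom adjusted p = 0.0456), and this call was lost under several other settings. For Chrm2 the log2 difference was 0.33 (SE 0.185, limma-voom adjusted p = 0.168).

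Other measures differed between the sexes beside these receptors. Long intergenic noncoding RNAs took 2.47% to 3.55% of the counts in females and 1.43% to 2.15% in males. The summed markers of hippocampal excitatory neurons were at group means of 1535 and 1554 CPM in females and 1158 and 1391 CPM in males. Zbtb20 alone gave a mean of 833 CPM of these sums, and of the 10 markers 4 were higher and 6 lower in males, 1 of them (Zbtb20) at an adjusted p < 0.05 in limma-voom. The astrocyte markers stood at 1128 and 1163 CPM in females and 1364 and 1332 CPM in males. The microglial markers stood at 142 and 157.3 CPM in females and 175 and 176 CPM in males, all 5 higher in males and 3 of them at an adjusted p < 0.05. The endothelial markers went the other way, at 144 and 160 CPM in females and 119 and 118 CPM in males, all 5 lower in males and 3 of them at an adjusted p < 0.05. At this threshold 18.8% of all genes were higher and 21.6% lower in males. All 5 astrocyte markers (3 at this threshold), all 5 oligodendrocyte markers (1) and all 7 choroid plexus markers (0) were higher in males. Of the 9 interneuron markers, 7 were higher, 2 of them at this threshold, and 2 were lower. The part of all these measures in the differences of Chrm1 and Chrnb2 was not tested.

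Across samples, Chrm1 and Chrm3 varied together. Over the 28 pairs of receptors, correlations were computed between deviations of log2 CPM from the group means, with 100000 permutations within groups. For Chrm1 and Chrm3, r was 0.78 and rho 0.77 (permutation p = 0.0002 and 0.00056, adjusted p = 0.0056 and 0.0157, n = 20). Without the 2 samples farthest from the median, r was 0.68, and with each sample left out in turn it stayed between 0.73 and 0.83. Control male 1 and nPM male 1 were those 2 samples, the lowest of Chrm1. No other pair passed an adjusted p < 0.05. Chrna4 and Chrnb2, whose subunits assemble together, had r = 0.61 and rho = 0.51 (permutation p = 0.0180 and 0.0469, adjusted p = 0.101 and 0.263). Chrm2 and Chrna4 had r = 0.61, which fell to 0.27 without the 2 farthest samples and so rested on them.

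**Figure D3:**
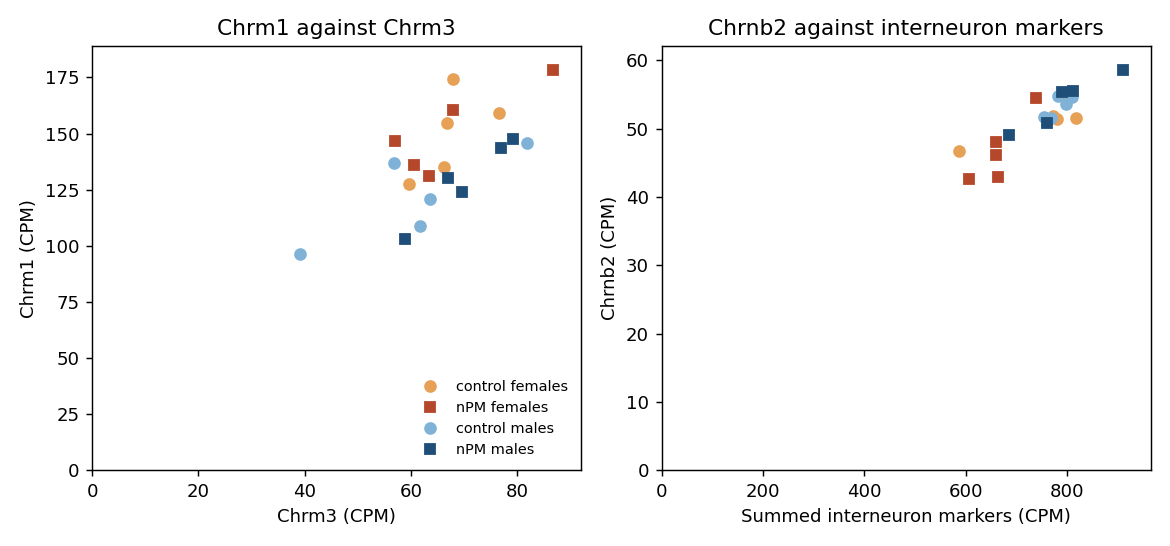
CPM of Chrm1 against Chrm3 (left) and of Chrnb2 against the summed CPM of interneuron markers (right), 1 point per sample with the group by colour and shape. After group means were removed, r over the 20 samples was 0.78 on the left and 0.80 on the right.

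Chrnb2 followed the summed markers of interneurons. The 8 receptors were correlated in the same way with the summed CPM of 12 marker lists, 96 relations in all, of which 2 passed an adjusted p < 0.05 for r. Chrnb2 and the interneuron markers, which include Gad1, Gad2, Sst and Pvalb, had r = 0.80 and rho = 0.79 (permutation p = 4e-05 and 6e-05, adjusted p = 0.00384 and 0.00576, n = 20). The value was 0.80 without the 2 samples farthest from the median, and 0.77 to 0.85 with each sample left out in turn. Gad1 and Gad2, at means of 321 and 191 CPM, made most of this sum. Sst and Pvalb were at 47.0 and 27.8 CPM. Relations of Chrnb2 with the single markers were not tested. The summed interneuron markers had the lowest group mean, 666 ± 46.7 CPM, in nPM females, where Chrnb2 was also lowest, against 750 ± 92.6 CPM in control females, 782 ± 22.1 CPM in control males and 791 ± 81.6 CPM in nPM males. The part of these markers in the values of Chrnb2 was not tested.

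Chrna4 moved against the markers of choroid plexus, with r = -0.63 and rho = -0.62 (permutation p = 0.00041 and 0.00119, adjusted p = 0.0197 and 0.0571). Without the 2 farthest samples r was -0.58. Ttr, at a mean of 1633 CPM, made most of this sum, and the next marker, Kl, was at 96.8 CPM. nPM female 1 had the highest choroid plexus sum, 8181 CPM, and the lowest Chrna4 of the females, and nPM male 3, at 5540 CPM, had the lowest Chrna4 of all. Of the other samples rich in these markers, some were low in Chrna4 and some were not. nPM male 2, at 3047 CPM of choroid plexus markers, had 11.95 CPM of Chrna4. Control male 5, at 2945 CPM, had 18.2 CPM, the lowest of the control males. Control male 4, at 7300 CPM of choroid plexus markers, had 20.04 CPM of Chrna4, and control male 2, at 4989 CPM, had 20.8 CPM, close to the control male mean of 20.3 CPM. Chrnb2 had a like relation with the choroid plexus markers, with r = -0.63 and rho = -0.60, which did not pass the adjustment (permutation p = 0.00434, adjusted p = 0.0837). Chrna4 also had r = 0.73 with the markers of neocortex, which did not pass the adjustment (permutation p = 0.00436, adjusted p = 0.0837). With the markers of interneurons it had r = 0.64 (permutation p = 0.0156, adjusted p = 0.157). With those of hippocampal excitatory neurons it had r = -0.63 and rho = -0.69 (permutation p = 0.00771 for r, adjusted p = 0.123). Chrm1 had r = 0.58 with the markers of hippocampal excitatory neurons (permutation p = 0.0170, adjusted p = 0.157), which fell to 0.38 without the 2 farthest samples. With the markers of microglia it had r = 0.58 and rho = 0.63 (permutation p = 0.0035, adjusted p = 0.0837), and r was 0.72 without the 2 farthest samples. Chrm4, which striatal neurons are known to express strongly, had r = -0.09 with the striatal markers, and nPM female 1, with the highest striatal sum, was at 7.01 CPM of Chrm4, within the range of its group.

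**Figure D4:**
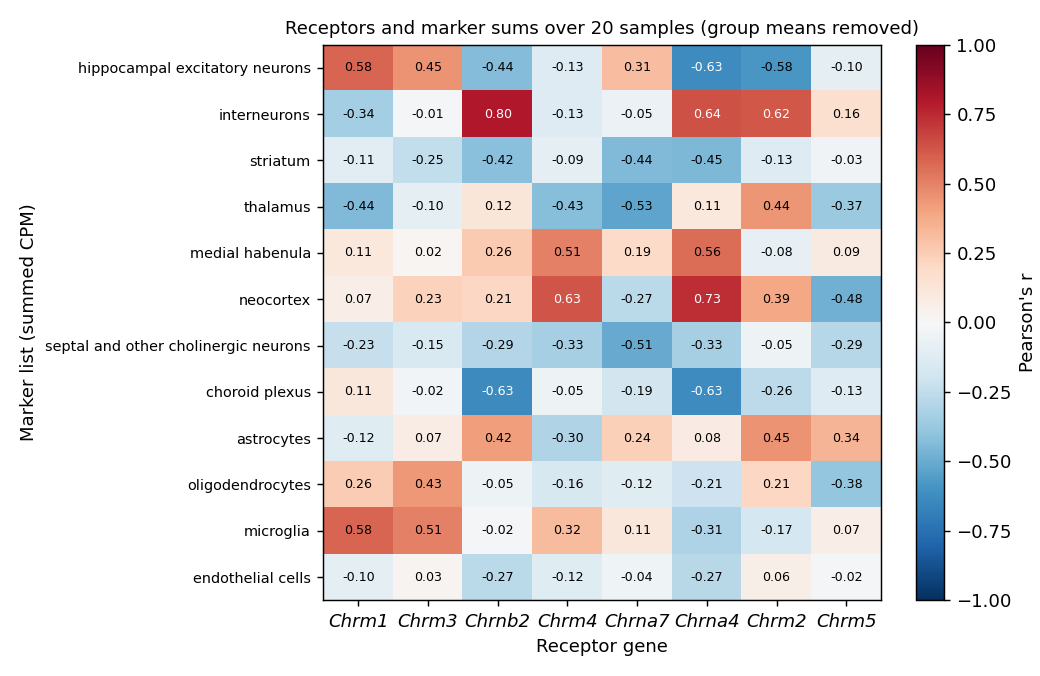
Pearson's r between each receptor (columns) and the summed CPM of 12 marker lists (rows), for deviations from the group means over 20 samples. The largest value is 0.80, for Chrnb2 with interneurons, and the 8 values of the striatal list lie between -0.45 and -0.03.

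For each receptor the protein-coding genes with the most similar pattern were sought among 12892 genes, by r of the same deviations over 20 samples, as a description. Those of Chrm2 were Slc17a6, a vesicular glutamate transporter gene (r = 0.92, rho = 0.81), and Plcb4, a phospholipase C gene (r = 0.91, rho = 0.79). Slc17a6 was at 147 CPM in nPM male 1 and at 16.4 to 76.0 CPM in the other 19 samples. Plcb4 was at 138 CPM in nPM male 1 and at 38.6 to 92.5 CPM in the others. Both patterns held without this sample, with r = 0.87 and 0.83. With the summed interneuron markers Chrm2 had r = 0.62 (permutation p = 0.0405, adjusted p = 0.233), and 0.71 without the 2 farthest samples. With those of hippocampal excitatory neurons it had r = -0.58 (permutation p = 0.0131, adjusted p = 0.157), and -0.65 without the 2 farthest samples. Slc17a6 is also 1 of the 8 thalamic markers listed, and the sum of that list had r = 0.44 with Chrm2, or 0.30 without nPM male 1. The other single thalamic markers went different ways, from r = 0.79 for Tnnt1 and 0.70 for Rgs16 to -0.05 for Zic1 and -0.24 for Prkcd. Without nPM male 1, r was 0.60 for Tnnt1 and 0.73 for Rgs16. For Tcf7l2 it went from 0.58 to 0.19 without this sample, and for Lef1 from 0.50 to 0.16.

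**Figure D5:**
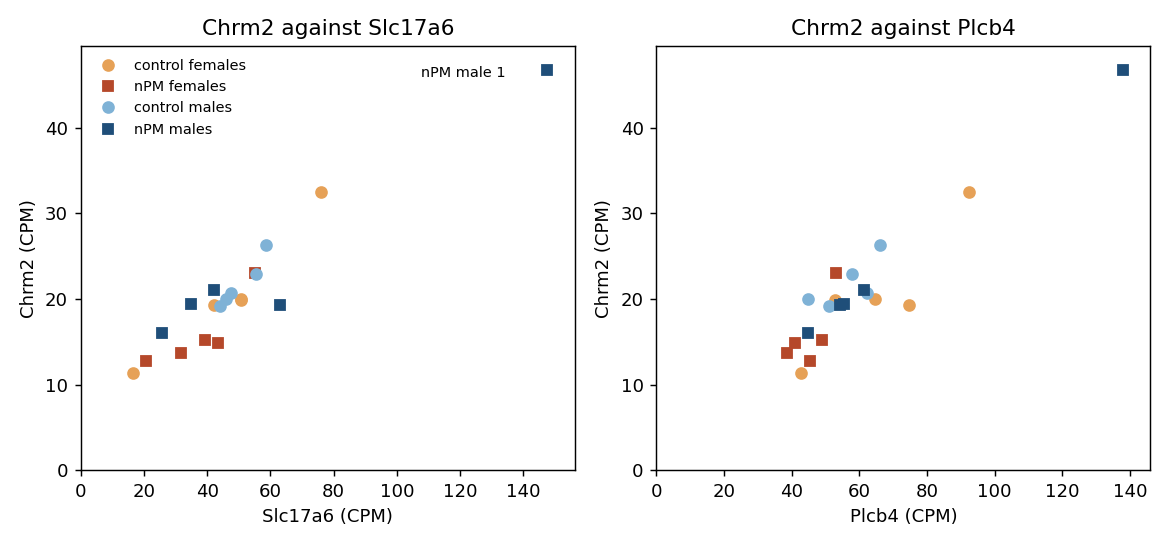
CPM of Chrm2 against CPM of Slc17a6 (left) and of Plcb4 (right), 1 point per sample with the group by colour and shape. nPM male 1 stands apart at 46.7 CPM of Chrm2, 147 CPM of Slc17a6 and 138 CPM of Plcb4, and the other 19 samples keep the relation.

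The genes closest to Chrm1 were Plxna1, a semaphorin receptor gene (r = 0.93), and Adcy9, an adenylyl cyclase gene (r = 0.92). Those closest to Chrm3 were Hunk, a protein kinase gene (r = 0.91), and Adat2, a tRNA-editing enzyme gene (r = 0.88). Kcnh3, a potassium channel gene (r = 0.86), and Synpo, which encodes an actin-binding protein of dendritic spines (r = 0.83), were closest to Chrm4. Ndufa10, of respiratory complex I (r = 0.86), and Zcchc17 (r = 0.85) were closest to Chrm5, where control male 1 stood apart. Among the nicotinic genes, Chrna4 was closest to Kcna3, a potassium channel gene (r = 0.89), and Klhdc8a (r = 0.89). Chrna7 was closest to Crmp1, of axon guidance (r = 0.84), and Ywhah, an adaptor protein gene (r = 0.82). Chrnb2 was closest to Prmt7, an arginine methyltransferase gene (r = 0.84), and Lxn, which encodes a carboxypeptidase inhibitor (r = 0.84).

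Other genes of acetylcholine signaling were described from lists. The genes that make and package acetylcholine in its neurons were at the limit of counting. Chat, choline acetyltransferase, had 0 to 12 counts per sample and was at 0 in 1 sample. Slc18a3, the vesicular transporter, had 0 to 7 counts and was at 0 in 7 samples, which allows up to 3 counts in each, for counting error only. Neither passed the filter on low counts. Slc5a7, the choline transporter, had 13 to 85 counts, and Ache, which breaks acetylcholine down, had 329 to 1354 counts. With both sexes their log2 differences between nPM and control were -0.03 (SE 0.186) and 0.02 (SE 0.105). Of the 13 other nicotinic subunit genes, 8 passed the filter. Chrna5, an accessory subunit of receptors with Chrna4 and Chrnb2, was the highest of these, with 114 to 302 counts. Their summed level stood apart in 2 samples. It was 26.3 CPM in nPM male 1 and 23.0 CPM in control female 1, against 8.26 to 12.4 CPM in the other 18. Chrna3, Chrna6 and Chrnb3 made this difference, with 216, 267 and 205 counts in nPM male 1 and 123, 183 and 143 counts in control female 1. In the other 18 samples they had at most 22, 19 and 25 counts. These were also the 2 samples highest in Chrm2 (46.7 and 32.5 CPM), Slc17a6 (147 and 76.0 CPM) and Plcb4 (138 and 92.5 CPM). Pou4f1, a transcription factor gene of the medial habenula and of other brain regions, had 225 and 64 counts in them and at most 6 elsewhere, while the summed habenular markers, mostly Nwd2, were at 43.4 and 55.3 CPM in them and reached 72.3 CPM elsewhere. The part of tissue composition in the Chrm2 values of these samples was not tested. Chrnd had 0 counts in all 20 samples.

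None of these genes had a p under 0.005 in the nPM comparisons. That covers 8 other subunits, 4 genes of acetylcholine synthesis, transport and breakdown, 8 genes of nicotinic receptor chaperones and Ly6 modulators and 22 G proteins and effectors of muscarinic receptors. At the looser threshold, a p under 0.05 in limma-voom, 1 of the 22 effectors passed with both sexes, another in males and another in females, beside 1 of the 8 chaperones and modulators in females. For the difference of the effect between the sexes, 2 effectors passed. The background at this threshold was 2.10% of all genes with both sexes, 4.28% in males, 1.99% in females and 3.79% for the difference, and so few members give no result about the lists. The genes that passed were chosen for naming after their values were seen. Rgs14, a regulator of G proteins known from hippocampal area CA2, had a log2 difference of 0.29 (SE 0.132) with both sexes. Kcnq5, a subunit of the potassium current that muscarinic receptors suppress, had -0.38 (SE 0.143) in males. In females, Plcb4 had -0.48 (SE 0.180) and Lypd1, a Ly6 modulator gene, -0.26 (SE 0.094). The difference of the nPM effect between the sexes, males minus females, was 0.71 (SE 0.337) for Plcb4 and -0.44 (SE 0.196) for Kcnq5, and neither passed the adjustment (adjusted p = 0.987 in limma-voom). Plcb4 was at 138 CPM in nPM male 1 and at 44.8 to 61.5 CPM in the other nPM males. Without nPM male 1 these values were 0.42 and -0.34, and both lost the unadjusted p under 0.05. In females Plcb4 was at -0.34 without control female 1, where it also lost it, and Rgs14 was at 0.22 with both sexes without control male 1. All 8 chaperone and modulator genes had negative differences in males and with both sexes, and 0 of them had a p under 0.05 there. Their median log2 difference was -0.076 in males and -0.108 with both sexes, against -0.0013 and -0.0059 over all genes tested. In females 7 of the 8 were negative. The fit with both sexes holds the same male and female samples, so that these signs are not separate results, and they give no result about the list.

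The same lists were compared between males and females. Of the chaperones and modulators, 5 of 8 passed an adjusted p < 0.05 in limma-voom, all higher in males, beside a background of 18.8% of genes higher. Tmem35a, a chaperone needed to assemble the receptor of Chrna7, was higher by 0.41 on the log2 scale (SE 0.070, adjusted p = 0.00013). Ric3, another nicotinic chaperone, was higher by 0.25 (SE 0.061, adjusted p = 0.00254). Lypd6 was higher by 0.47, Ly6h by 0.44 and Lypd1 by 0.33. Chrna7 itself had a log2 difference of -0.09 (SE 0.080, limma-voom adjusted p = 0.390).

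Of the 22 effectors, 4 were higher and 3 lower in males at an adjusted p < 0.05 in limma-voom. Both shares lie below the background, 18.8% of all genes higher and 21.6% lower, and are no result about the list. The inhibitory G protein genes Gnai1, Gnai3 and Gnai2 were higher by 0.42, 0.34 and 0.18 on the log2 scale, while Gnao1, another G protein gene of the same class, had -0.26. Kcnj6 and Kcnj3, which encode potassium channel subunits opened by muscarinic receptors, went opposite ways, with -0.52 (SE 0.078) and 0.14 (SE 0.055). Bche, which also breaks down acetylcholine, was higher in males by 0.42 (SE 0.108, adjusted p = 0.00416), and of the other nicotinic subunits 0 of 8 passed, against a background of 40.4%.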

How the data were processed

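The authors prepared ribosomal RNA-depleted libraries of 20 hippocampal samples, mapped reads with HISAT2 on mm10 and obtained gene counts by featureCounts 1.5.0-p3 from Gencode M11. The deposited values are whole-number counts without normalization. The authors also deposited gene lengths and a mean RPKM per gene. RPKM recomputed here from the counts differed from this mean by at most 4.91e-11. CPM in the text, and log2 CPM (0.5 counts added) in correlations and exact tests, are scaled to TMM library sizes, while RPKM use total counts. The text does not state how reads with several alignments were treated.

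filterByExpr was run over the 4 groups (minimum count 10, minimum total 15) and left 19797 genes with all 8 receptors. limma-voom (limma 3.58.1, edgeR 4.0.16, R 4.3.3) was fitted on TMM-scaled counts with an offset of 0.5, on all genes, with Benjamini-Hochberg adjustment over all of them. Fold changes come from these fits. Fits were tested on simulated data, with planted changes larger than any receptor difference given here. That test does not cover changes of the size of the receptor differences. Groups and replicate numbers came from the sample labels.

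Alternatives were the edgeR quasi-likelihood test, DESeq2 1.42.0, RLE scaling, other filters, quality weights, age, a replicate block, 1 fit of the 4 groups and leaving out each sample. The receptors and the gene lists were chosen with earlier results of these data known. The text names all 8 receptors, the 2 genes most like each of them (mean of at least 50 counts), genes of the acetylcholine lists with a p under 0.005 in any fit (except 1, below), and Chat, Slc18a3, Slc5a7 and Ache. Marker genes are named where a result turns on them. Rgs14, Kcnq5, Plcb4 and Lypd1 with each sample left out, Lypd1, Gnai2 and Kcnj3 between the sexes, Chrna3, Chrna5, Chrna6, Chrnb3, Chrnd, Pou4f1, Nwd2 and Zbtb20, the single thalamic markers, Adar and the correlations with samples left out were added after the data were seen. The values of 1 gene of the effector list are not reported here. Sequences came from RefSeq, exon overlaps from Gencode M21 (same build). Of the deposited gene lengths, that of Chrm3 alone among the receptors differs from M21 (4507 against 6253 bases). Figures were drawn with Python 3.11.15 and matplotlib 3.10.9.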

Additional observations from a re-analysis of the deposited data

Results flagged for a closer look

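In 32 sets of 5 samples (8 receptors in 4 groups), 2 held a sample far from the others, by the gap to the nearest sample as a share of the whole range, against a critical value of 0.71. Chance gives about 1 in 20 sets. Chrm2 in nPM male 1 was at 46.7 CPM, above the other nPM males, with a gap of 0.7416 of the range. Chrm5 in control male 1 was at 5.26 CPM, above the other control males, with a gap of 0.7191.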

How the results depend on the processing

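No receptor had a p under 0.005 in any nPM comparison under any alternative run. The numbers of all genes passing it moved. With both sexes (28 genes) it was 43 with DESeq2, 71 without the filter, 17 with a CPM of at least 1 in 5 samples, 53 with quality weights and 17 to 47 with 1 sample left out. In males (41) it was 113 with DESeq2, 130 without the filter and 23 to 78 with 1 sample left out. In females (18) it was 55 with DESeq2, 87 without the filter, 44 with quality weights and 10 to 48. For the difference between the sexes (43) it was 66 with edgeR's quasi-likelihood test, 89 with DESeq2, 149 without the filter, 25 with the CPM filter and 24 to 77. Receptors with a p under 0.05 were 0 to 1 with 1 sample left out in males, in females and for the difference between the sexes. Between males and females, 7225 to 8309 genes had an adjusted p < 0.05 with 1 sample left out, and the receptors were 1 to 2, with 2 to 3 at an unadjusted p under 0.05. That number was 1 under RLE scaling, without the filter, with the CPM filter and with the replicate block, since Chrnb2 had limma-voom adjusted p of 0.0520, 0.0667, 0.0843 and 0.0522, and the cause was not tested. Chrnb2 also lost this call in 12 of the fits with 1 sample left out. Chrm1 kept its call in each of the fits run, with adjusted p of 0.00761 to 0.0315 under the alternatives other than leaving out a sample. Same-numbered samples did not pair, with r of -0.36 to 0.16 in 10 pairs and 0 that correlated best with their own number, and the replicate block changed no other call of a receptor. Of 328 receptor values under alternatives, 10 changed sign, none past a threshold. These were Chrm5 with both sexes (0.011) and Chrm2 in males (-0.014) under quality weights, and Chrm3 in females with quasi-likelihood (0.0073) and DESeq2 (0.0032). Chrna4 did so for the difference between the sexes with quasi-likelihood (0.064), DESeq2 (0.063), the CPM filter (0.000115) and the replicate block (0.0062), and Chrm5 between males and females with the CPM filter (-0.013) and weights (-0.032). The causes were not tested. With 1 sample left out, 42 of 640 values changed sign. The ranges were -0.076 to 0.097 (Chrm4), -0.12 to 0.072 (Chrm5) and -0.031 to 0.055 (Chrna7) with both sexes, -0.027 to 0.037 (Chrnb2) and -0.22 to 0.18 (Chrm2) in males, -0.043 to 0.079 (Chrm1) and -0.11 to 0.050 (Chrm3) in females, -0.17 to 0.13 (Chrna4) for the difference between the sexes, and -0.10 to 0.019 (Chrm3) and -0.11 to 0.11 (Chrm5) between males and females. Mean levels stayed within 1 SD under TMM library sizes, and with mitochondrial genes left out of the totals Chrna7 went to 5.42 and Chrnb2 to 7.04 RPKM. Depth limits Chrm5 most, with a median of 68 counts.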
